A study of Mus musculus with 6 samples.

Results

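The Trim genes encode tripartite motif proteins, a large family in which most members carry a RING finger, 1 or more B-boxes and a coiled coil, and act as ubiquitin ligases. Members were taken by name: every gene on the array whose single annotated symbol begins with Trim and a digit, which gave 59 genes of the 19938 named there, each on 1 transcript cluster (the set of probes that measures a gene). Levels were measured on 6 Affymetrix mouse gene arrays of mouse embryonic fibroblasts (MEFs), 3 from Rb1L/L and 3 from Rb1+/+ cultures, made from E13.5 embryos and grown in serum-containing medium to passage 4. All 6 cultures were proliferating when RNA was taken. Rb1 encodes the retinoblastoma protein pRb, and the L allele is known to change its docking site for proteins that carry an LXCXE motif. The labels give neither the strain background nor the sex of the embryos, and 1 array stood for each culture. All levels are log2 values.

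The family is best known in fibroblasts and immune cells for its part in antiviral defence. Some members bind viral capsids or antibody-coated particles, some ubiquitinate the sensors of foreign RNA or their adaptors, and several are themselves induced by interferon through interferon-stimulated response elements (ISREs) in their promoters. Other members work far from immunity: the TIF1 group represses chromatin, the NHL group binds RNA, and the MuRF group turns over muscle proteins.

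Pearson correlations between arrays were 0.9948 or higher for cultures of 1 genotype and 0.9927 or lower for cultures of different genotypes. All 12 fibroblast markers were above the low-value limit, with means of 10.98 to 11.03 in Rb1L/L and 11.07 to 11.18 in Rb1+/+ arrays. Of these, 2 fell, and 3 with the replicate number as a block, where 5.08% and 6.45% of all tested genes fell. A log2 fold change below 0 was found in 10 of the 12, against 8719 of all 15462 tested genes. Rb1 itself averaged 8.93 ± 0.07 in Rb1L/L and 8.83 ± 0.19 in Rb1+/+ cultures (SD, n = 3 each; limma adjusted p = 0.519), and this does not check the labels, since the L allele makes a transcript. Xist was low in the 2 cultures numbered 1 (4.79 in Rb1L/L and 5.13 in Rb1+/+) and at 11.44 or more elsewhere. The Y-linked Eif2s3y was high in those 2 cultures (8.47 in Rb1L/L and 8.36 in Rb1+/+), so sex followed the replicate number and not the genotype.

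Of the 59 members, 53 had a mean over the 6 arrays above a low-value limit of log2 5.081, below which 90% of the 1194 odorant and pheromone receptor genes lay, and were tested with limma. In Rb1L/L cultures 7 members rose and 3 fell at an adjusted p under 0.05, that is 13.2% and 5.66% of those tested, where 7.1% and 5.08% of all 15462 tested genes rose and fell. Together 18.9% of tested members changed, against 12.2% of all genes. The groups did not overlap for 11 members that were higher (20.8%) and 7 that were lower (13.2%), against 16.2% and 18.3% of all genes (34.5% in either direction). The median log2 fold change was 0.0016 over the members and -0.0213 over all genes, and 27 members were above 0 and 26 below. The counts rested on the number of arrays. The count that rose was 3 without Rb1L/L replicate 2 or Rb1+/+ replicate 1 and 4 without Rb1+/+ replicate 2 or 3, and the count that fell was 1 in each fit without 1 array other than that without Rb1+/+ replicate 2.

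**Figure D1:**
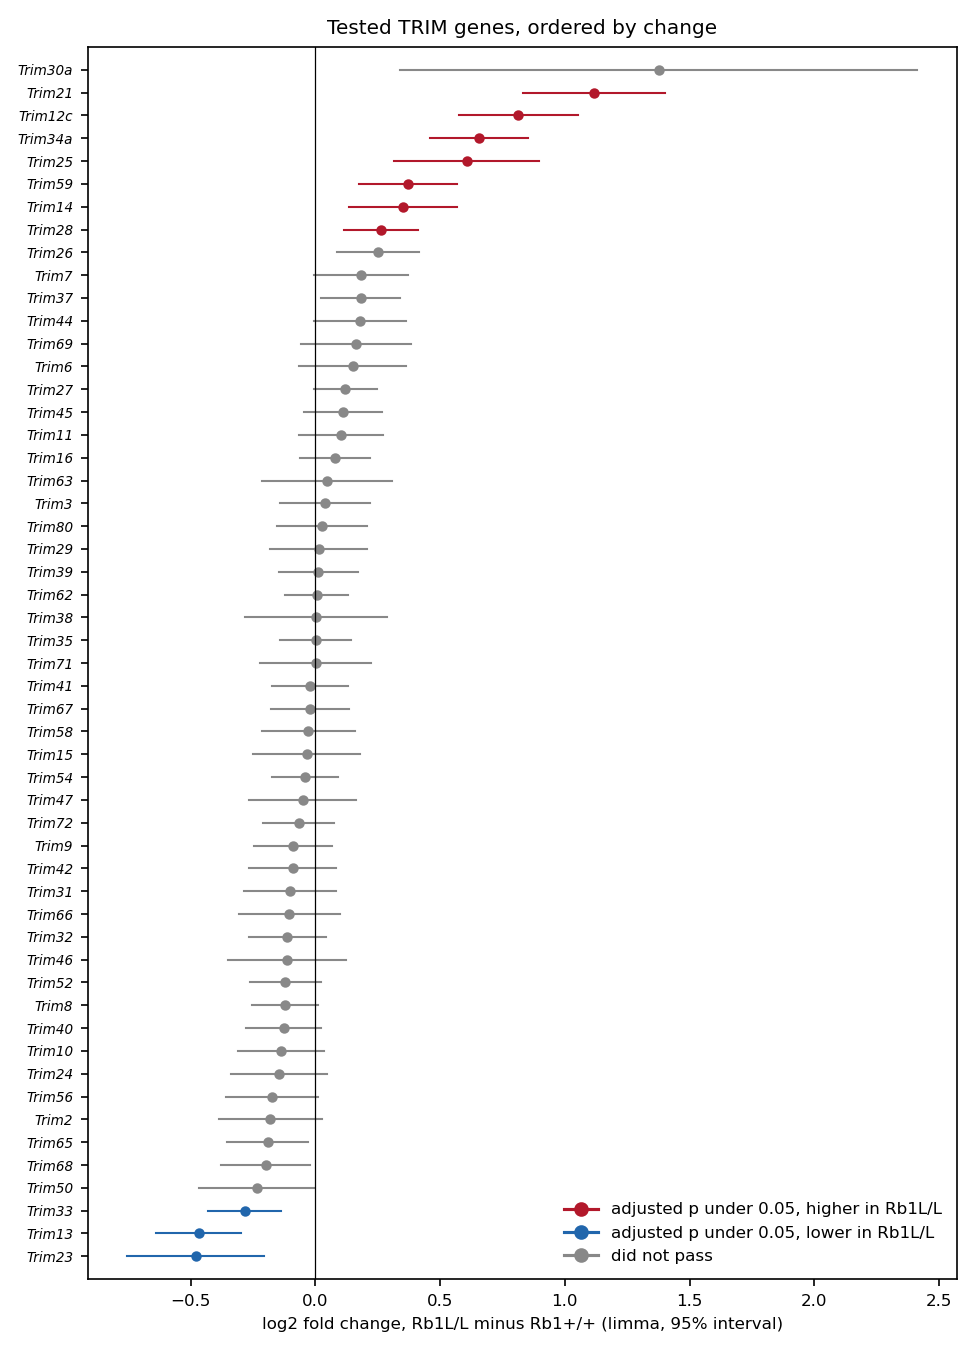
Log2 fold change of the 53 tested TRIM genes (x axis, Rb1L/L minus Rb1+/+, point and 95% interval of the limma fit), ordered by size down the page. The 7 members past the threshold on the right are led by Trim21 at 1.12, and the 3 on the left by Trim23 at -0.48; Trim30a, at the top, has the widest interval, 0.34 to 2.41.

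The members that act in antiviral and innate immune responses held 5 of the 7 increases. Of 12 tested, 5 rose and none fell, where 7.1% of all tested genes rose and 5.08% fell, and their median log2 fold change was 0.30. With the replicate number as a block, 7 rose and none fell, where 7.99% of all tested genes rose and 6.45% fell. The count was 3 without Rb1L/L replicate 2, without Rb1+/+ replicate 1 or without Rb1+/+ replicate 2. The increases were in Trim21, Trim12c, Trim34a, Trim25 and Trim14. In bulk cultures, more cells that express a gene and more RNA in each cell cannot be told apart.

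The promoters of 3 of these genes, and of 2 more members that passed with the block, hold the letters of an ISRE, and they are printed here for that reason. The windows come from RefSeq (GRCm38.p6) and run from 250 bases before an annotated start to 50 bases from it on, 5′ to 3′ on the strand of the gene. Capitals mark the ISRE-type letters searched for (GAAA, any 2 bases, then GAAA) on either strand, overlapping matches included.
Trim21, chr7:102565433-102565732, minus strand: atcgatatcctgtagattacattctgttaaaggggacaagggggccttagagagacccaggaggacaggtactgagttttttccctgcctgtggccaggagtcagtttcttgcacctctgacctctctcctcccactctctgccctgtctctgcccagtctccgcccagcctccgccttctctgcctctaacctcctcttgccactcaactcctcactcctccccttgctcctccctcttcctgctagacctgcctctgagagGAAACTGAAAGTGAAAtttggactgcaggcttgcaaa
Trim12c, chr7:104353300-104353599, minus strand: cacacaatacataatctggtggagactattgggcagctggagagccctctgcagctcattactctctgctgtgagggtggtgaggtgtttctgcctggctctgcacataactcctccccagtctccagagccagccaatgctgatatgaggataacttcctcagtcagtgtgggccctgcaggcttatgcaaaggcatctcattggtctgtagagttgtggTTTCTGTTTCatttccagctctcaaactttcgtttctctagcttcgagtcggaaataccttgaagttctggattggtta
Trim34a, chr7:104244207-104244506, plus strand: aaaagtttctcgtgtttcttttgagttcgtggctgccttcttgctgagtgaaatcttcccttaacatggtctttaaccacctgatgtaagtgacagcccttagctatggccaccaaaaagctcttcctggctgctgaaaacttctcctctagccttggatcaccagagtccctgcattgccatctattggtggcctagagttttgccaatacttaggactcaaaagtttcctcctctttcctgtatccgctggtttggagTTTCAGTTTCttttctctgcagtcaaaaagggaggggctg
Trim30a, chr7:104465144-104465443, minus strand: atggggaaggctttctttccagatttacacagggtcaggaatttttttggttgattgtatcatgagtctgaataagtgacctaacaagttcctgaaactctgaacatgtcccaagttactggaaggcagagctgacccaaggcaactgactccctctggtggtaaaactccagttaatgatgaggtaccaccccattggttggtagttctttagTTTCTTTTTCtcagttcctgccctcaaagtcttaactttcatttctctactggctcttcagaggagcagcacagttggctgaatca
Trim26, chr17:36836896-36837195, plus strand: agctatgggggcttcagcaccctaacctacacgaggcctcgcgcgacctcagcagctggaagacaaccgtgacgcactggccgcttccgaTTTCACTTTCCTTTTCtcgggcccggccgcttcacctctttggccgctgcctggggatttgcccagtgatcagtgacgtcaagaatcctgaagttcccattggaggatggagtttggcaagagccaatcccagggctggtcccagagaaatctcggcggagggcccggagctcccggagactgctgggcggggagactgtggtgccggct

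With the start base at position 0, the first match begins at 13 in Trim21, 10 in Trim34a, -29 in Trim12c, -36 in Trim30a and -160 in Trim26. Trim30a has another window, chr7:104446076-104446375, not printed here, with a match that begins at 2. Trim21 and Trim26 each hold 2 overlapping matches. A window was found for 46 of the 59 members, and 8 of them (17.39%) held the ISRE-type letters, against 3.99% of 27025 genes with a window and 3.41% of those tested. The other 3 members with a match were Trim12a, Trim30d and Trim2. The windows of Trim12a and Trim30d are near copies of those of Trim12c and Trim30a (95% and 93.6% identical), so the 8 matches are not independent. Of the 7 members that rose, 6 had a window and 3 of these a match, against 49 of 864 genes (5.67%) that rose anywhere in the genome. Of the tested members that were not called, 35 had a window and 3 of these (8.57%) a match: Trim2, Trim26 and Trim30a. Trim13 and Trim23, the members that fell for which a window was found, held none. The GAS-type letters TTCNNNGAA stood in 5 of the 46 members (10.87%) and in 9.55% of all genes, and the E2F-type letters TTTGGCGC or TTTCGCGC in none of the 46 and in 0.93% of all genes. A match is a run of letters and not a tested binding site.

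Trim21 encodes a cytosolic antibody receptor that tags antibody-coated virus for destruction. It measured 8.01, 8.44 and 8.30 in Rb1L/L replicates 1 to 3, against 7.27, 6.95 and 7.18 in Rb1+/+ replicates 1 to 3. Every Rb1L/L culture was above every Rb1+/+ culture, with a gap wider than the spread within either genotype. The level was 2.17-fold higher in Rb1L/L (log2 fold change 1.12 ± 0.12 SE; limma adjusted p = 0.00302), and it was the only member to pass in each of the 18 alternative fits among the 10 called.

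Trim12c and Trim34a are relatives of the retroviral restriction factor TRIM5 and lie near each other on chromosome 7. Trim12c measured 6.88, 6.91 and 6.71 in Rb1L/L cultures, against 5.91, 5.90 and 6.25 in Rb1+/+ cultures, 1.76-fold higher (0.81 ± 0.10 SE; limma adjusted p = 0.00459). Trim34a measured 7.55, 7.60 and 7.85 in Rb1L/L cultures, against 7.02, 6.97 and 7.05 in Rb1+/+ cultures, 1.58-fold higher (0.66 ± 0.09 SE; limma adjusted p = 0.00477). For both genes the cultures fell into 2 separate groups by genotype, and Rb1+/+ replicates of Trim34a were the tightest, with an SD of 0.04. Both passed in all 6 fits without 1 array, and both were lost without the 2 arrays numbered 1 (adjusted p = 0.0833 for Trim12c and 0.0594 for Trim34a). Near-identical copies (Trim12a, Trim34b) exist, and probes of such genes can take up each other's transcripts.

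Trim25 encodes a ubiquitin ligase of the RNA sensor RIG-I. It measured 9.60, 9.90 and 9.55 in Rb1L/L cultures, against 8.87, 9.08 and 9.30 in Rb1+/+ cultures (log2 fold change 0.61 ± 0.13 SE; limma adjusted p = 0.0217). The groups did not overlap, but the lowest Rb1L/L and the highest Rb1+/+ value lay close together. The call was lost without Rb1L/L replicate 1 or 2 or Rb1+/+ replicate 1 or 2, at adjusted p = 0.0505 to 0.0635.

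Trim14 lacks a RING finger and serves as an adaptor at the mitochondrial protein MAVS, downstream of RIG-I. It measured 5.75, 6.14 and 5.90 in Rb1L/L cultures, against 5.62, 5.55 and 5.58 in Rb1+/+ cultures (0.35 ± 0.09 SE; limma adjusted p = 0.0473). Rb1L/L replicate 1 was close to the Rb1+/+ values. The call was lost in 5 of the 6 fits without 1 array (adjusted p = 0.0919 to 0.108) and held without Rb1L/L replicate 1 (0.0418).

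Trim26, a ligase gene of the MHC region, measured 8.41, 8.24 and 8.20 in Rb1L/L cultures, against 8.08, 7.96 and 8.05 in Rb1+/+ cultures (0.25 ± 0.07 SE). The groups did not overlap, and the gene missed the threshold (limma adjusted p = 0.0572) but passed with the replicate block (0.0423).

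Trim30a, which in mice restrains NF-kappaB signalling, had the highest log2 fold change of the tested members and the widest spread. It measured 5.37, 6.87 and 7.54 in Rb1L/L replicates 1 to 3, against 5.19, 5.09 and 5.38 in Rb1+/+ replicates 1 to 3. Rb1L/L replicate 1 lay within the Rb1+/+ range, close to the low-value limit, while the other 2 Rb1L/L cultures stood well above it. The SD was 1.11 in Rb1L/L and 0.15 in Rb1+/+, and no other tested member had an SD over 0.5 in either genotype. The log2 fold change was 1.38 ± 0.45 SE (limma adjusted p = 0.0855; 0.0357 with the replicate block). It was 1.99 without Rb1L/L replicate 1 (adjusted p = 0.00304), 1.24 without Rb1L/L replicate 2 and 0.90 without Rb1L/L replicate 3.

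**Figure D2:**
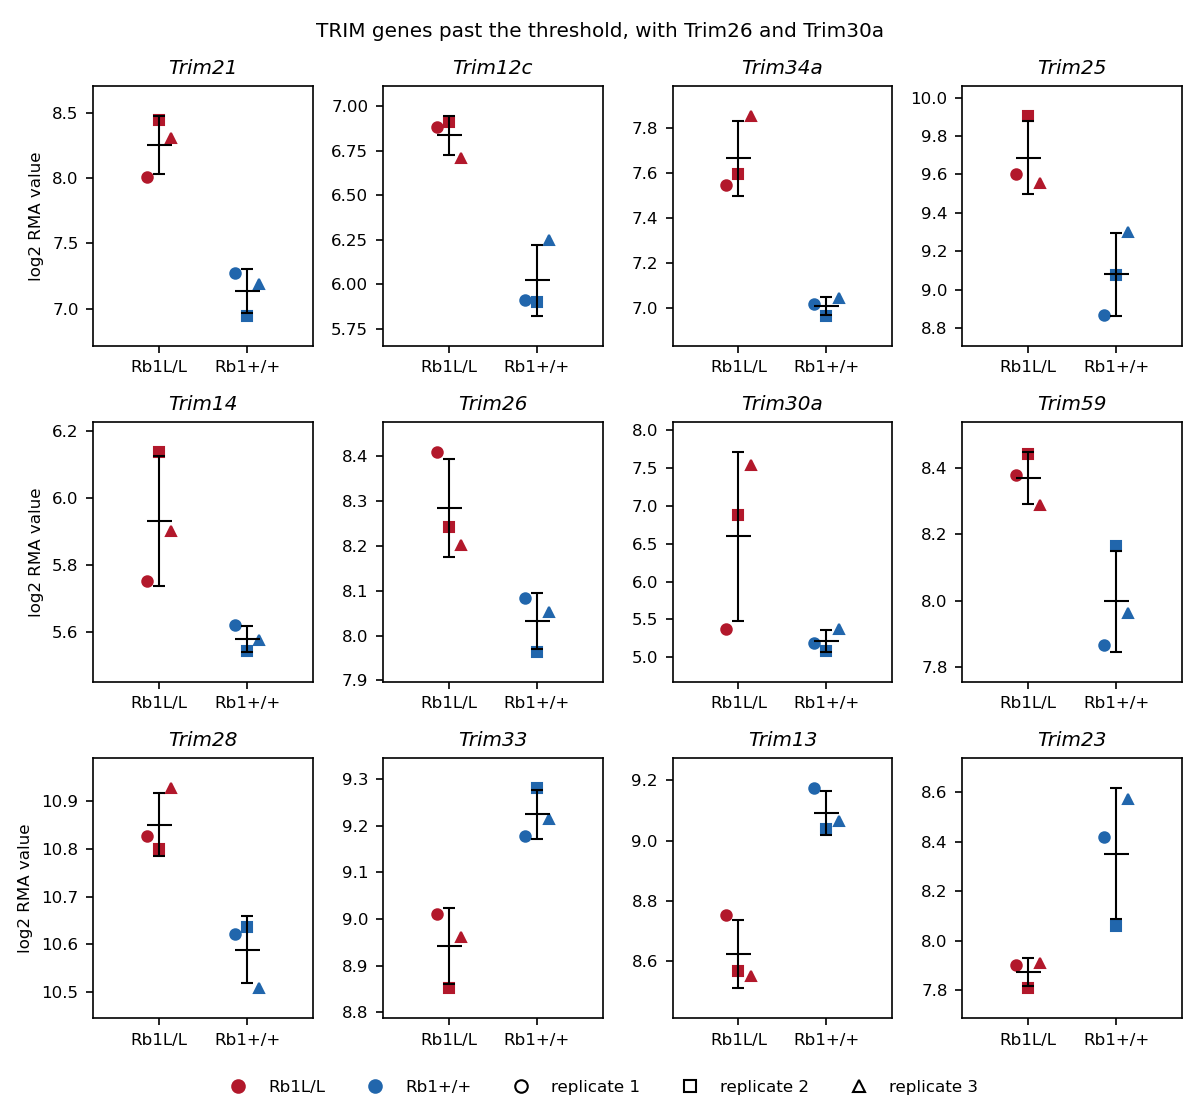
Log2 RMA values of 12 TRIM genes (y axes, each with its own range not starting at 0) in 3 Rb1L/L and 3 Rb1+/+ cultures; points are arrays, shaped by replicate number, and bars are the mean and SD. The groups do not overlap except for Trim30a, where Rb1L/L replicate 1 at 5.37 lies among the Rb1+/+ values.

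The remaining members of this set did not pass. Trim6 (0.15), Trim38 (0.00), Trim31 (-0.10), Trim56 (-0.17; reported to act on the DNA sensing adaptor STING) and Trim65 (-0.19; the ligase of the RNA sensor MDA5) had log2 fold changes with adjusted p of 0.116 or more.

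Markers of macrophages, cells that also express many of these genes, were examined beside this set. Of 20 on the array 19 were tested, and 3 rose and 1 fell, where 7.1% and 5.08% of all tested genes did. A log2 fold change above 0 was found in 17 of the 19, against 6743 of all 15462 tested genes. The median was 0.27, beside 0.30 for the antiviral members and -0.0213 over all genes. Adgre1, a macrophage surface receptor gene, measured 6.73, 7.44 and 6.73 in Rb1L/L replicates 1 to 3, against 6.11, 5.72 and 6.25 in Rb1+/+ replicates 1 to 3, 1.93-fold higher without overlap (0.95 ± 0.20 SE; limma adjusted p = 0.0241). Cd14, a coreceptor for lipopolysaccharide (0.35; adjusted p = 0.0179), and the complement gene C1qa (0.34; adjusted p = 0.0385) also rose, and the chemokine receptor gene Cx3cr1 fell by 0.34 (adjusted p = 0.0406). Without 1 array, Adgre1 and Cd14 passed in 4 of the 6 fits and C1qa and Cx3cr1 in 1. The mean of the 20 markers was 6.95, 7.38 and 7.16 in Rb1L/L replicates 1 to 3, against 6.92, 6.68 and 7.19 in Rb1+/+ replicates 1 to 3. These means overlapped between genotypes. The part of such cells in the increases of this set was not tested.

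Trim30a and Trim12c belong to a run of 11 protein-coding genes on chromosome 7, in the reference order, of which 10 are Trim genes and 6 are members. From Trim6 to Trim30d, 4 members were tested. Trim34a and Trim12c rose, Trim30a had the change given above and Trim6 did not pass. The other 2, Trim12a and Trim30d, had means below the low-value limit and were not tested, yet each stood high in a single culture.

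Trim12a measured 4.22, 3.96 and 6.46 in Rb1L/L replicates 1 to 3, against 4.02, 3.92 and 3.96 in Rb1+/+ replicates 1 to 3. Trim30d measured 3.39, 3.79 and 5.96 in Rb1L/L replicates 1 to 3, against 3.53, 3.68 and 3.84 in Rb1+/+ replicates 1 to 3. In both genes Rb1L/L replicate 3 stood apart from the other 5 arrays, by 2.24 for Trim12a and 2.11 for Trim30d, and those 5 were below the limit. Trim30a was also highest in that culture, whereas Trim12c was lowest there among the Rb1L/L cultures. The pseudogene Trim30e-ps1, a member not counted in the run, lay between 3.63 and 3.94 in Rb1L/L and between 3.59 and 3.71 in Rb1+/+ cultures.

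**Figure D3:**
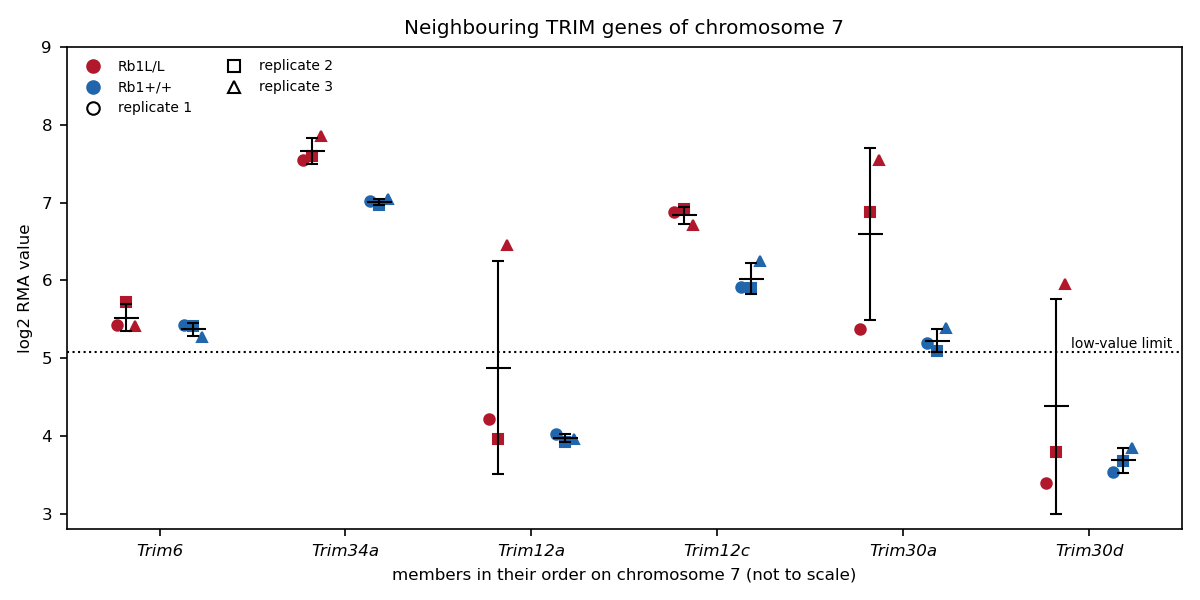
Log2 RMA values (y axis) of 6 neighbouring TRIM genes in their order on chromosome 7, in 3 Rb1L/L and 3 Rb1+/+ cultures; points are arrays, bars the mean and SD, and the dotted line is the low-value limit at 5.081. Rb1L/L replicate 3 is at 6.46 for Trim12a and 5.96 for Trim30d, where every other array is below the line.

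Within this run, 2 pairs of copies have like promoters. The windows of Trim12a and Trim12c were identical at 95% of 260 aligned bases, and those of Trim30a (as printed above) and Trim30d at 93.6% of 295. The window of Trim34a shared 61.4% of 272 with that of Trim12c, 68% of 253 with that of Trim30a and 73.1% of 249 with that of Trim30d. The other window of Trim30a shared 88.2% of 255 with that of Trim30d and 62.8% of 253 with that of Trim34a. The 60 bases around the ISRE-type letters, in capitals, are shown to set the copies side by side.
Trim12a, chr7:104315451-104315510, minus strand: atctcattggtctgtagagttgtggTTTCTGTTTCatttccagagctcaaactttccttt
Trim12c, chr7:104353344-104353403, minus strand: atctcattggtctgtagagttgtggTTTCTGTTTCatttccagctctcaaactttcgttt
Trim30a, chr7:104465195-104465254, minus strand: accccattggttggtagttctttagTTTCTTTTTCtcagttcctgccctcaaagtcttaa
Trim30d, chr7:104507856-104507915, minus strand: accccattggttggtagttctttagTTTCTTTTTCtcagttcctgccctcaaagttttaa
The marked letters are the same within each pair. Their part in the levels of these genes was not tested.

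Genes of the pathway that these ligases serve were examined next. Of 19 genes listed for RNA and DNA sensing, 16 had a cluster with 1 symbol and were tested. Traf3, Nfkb1 and Isg15 had none and were not looked for among the other clusters. Of the 16, 8 rose and 1 fell, where 7.1% and 5.08% of all tested genes did (9 rose and 1 fell with the replicate block). Their median log2 fold change was 0.25, against -0.0213 over all genes. Ddx58 encodes RIG-I, a substrate of Trim25. It measured 10.49, 10.81 and 10.75 in Rb1L/L cultures, against 9.35, 9.40 and 9.86 in Rb1+/+ cultures (1.15 ± 0.14 SE; limma adjusted p = 0.00428). Ifih1, which encodes MDA5, was 3.66-fold higher (1.87; adjusted p = 0.00322), Dhx58, which encodes the related helicase LGP2, 2.89-fold (1.53; adjusted p = 0.00218) and the transcription factor gene Irf7 4.68-fold (2.23; adjusted p = 0.00326). Zc3hav1, a zinc finger antiviral gene, the DNA sensor gene Cgas, the endosomal sensor gene Tlr3 and Irf3 rose by 0.60, 0.41, 0.38 and 0.22. Irf3 lost its call without any 1 array (adjusted p = 0.0679 to 0.13) and Tlr3 without Rb1L/L replicate 2 (0.0542). Ticam1, the adaptor of Tlr3, fell by 0.41 (adjusted p = 0.0178), and did not pass without Rb1L/L replicate 1 or 2 or Rb1+/+ replicate 1 (adjusted p up to 0.0646), so that none of the set fell in those fits. The other 7 genes did not pass: the ligase gene Rnf135 had 0.28 (adjusted p = 0.0669, and it passed with the block), the kinase gene Ikbke 0.22 (0.121), Traf6 0.07, Sting1 0.06, Tbk1 0.04, Mavs 0.00 and Rela -0.03.

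**Figure D4:**
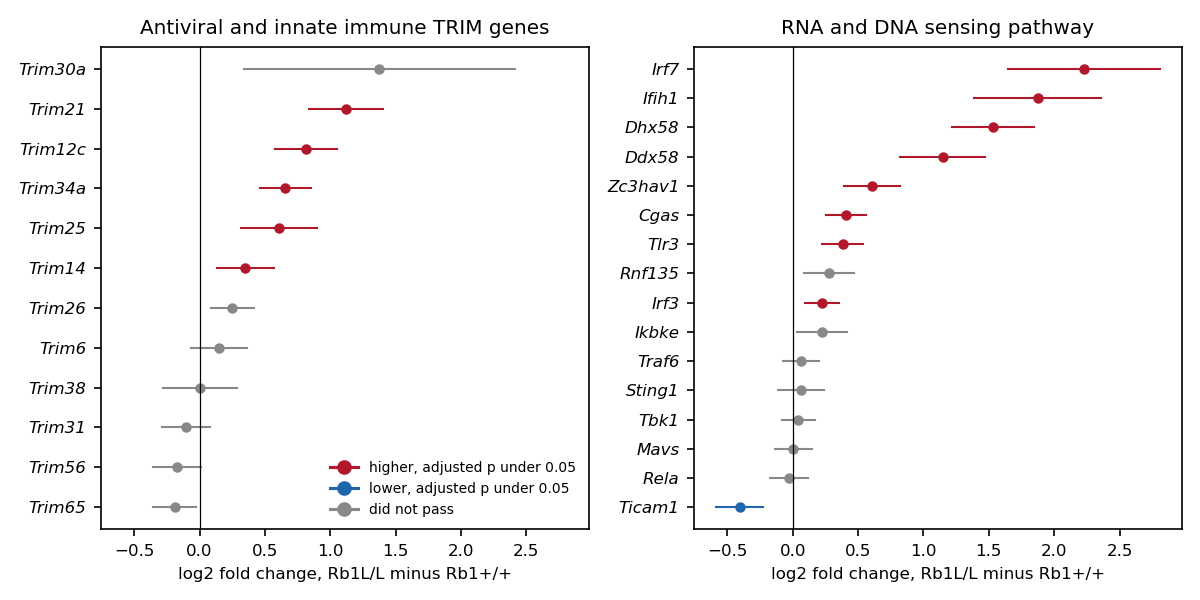
Log2 fold change (x axes, Rb1L/L minus Rb1+/+, point and 95% interval of the limma fit) of the 12 tested antiviral and innate immune TRIM genes, left, and of the 16 tested RNA and DNA sensing genes, right. Irf7 at 2.23 and Ifih1 at 1.87 lie to the right of every TRIM gene, and Ticam1 is the gene that fell.

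Pml is the best known family member under another name. Of 8 such genes 6 were tested, and Pml rose and none fell, where 7.1% and 5.08% of all tested genes did. Pml, which builds nuclear bodies, measured 10.55, 10.76 and 10.62 in Rb1L/L cultures, against 10.04, 9.99 and 10.01 in Rb1+/+ cultures (0.63 ± 0.07 SE; limma adjusted p = 0.00295), with the cultures of a genotype close together. Mid2, Rnf207, Triml1, Cmya5 and Mid1 had log2 fold changes between -0.16 and -0.06 and did not pass.

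The TIF1 group, which represses chromatin, moved both ways. Trim28 is the corepressor through which KRAB zinc finger proteins silence retroelements. It measured 10.83, 10.80 and 10.93 in Rb1L/L cultures, against 10.62, 10.64 and 10.51 in Rb1+/+ cultures, 1.20-fold higher (0.26 ± 0.06 SE; limma adjusted p = 0.0355). The groups did not overlap, but the call was lost with the replicate block (adjusted p = 0.051) and without any 1 array (0.0538 to 0.0937).

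Trim33, a ligase that acts on SMAD4 in TGF-beta signalling, measured 9.01, 8.85 and 8.96 in Rb1L/L cultures, against 9.18, 9.28 and 9.21 in Rb1+/+ cultures. It fell by 0.28 on the log2 scale (SE 0.06; limma adjusted p = 0.0283), held with the block (0.0403) and was lost without any 1 array (0.0581 to 0.0954). Trim24 (-0.14), a coregulator of nuclear receptors, and Trim66 (-0.10) did not pass. Of 10 partners of Trim28, none rose or fell in limma at the adjusted threshold or with the replicate block, and 3 had an unadjusted p under 0.05, where 28.7% of all tested genes had one. The closest were Zfp57 (0.22; adjusted p = 0.0647), Zfp809 (-0.25; 0.0818) and Cbx3 (0.20; 0.0909), while Setdb1, the histone methyltransferase of the complex, had -0.02.

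The 2 members anchored in membranes went opposite ways. Trim59, linked to proliferation in tumour cells, measured 8.38, 8.44 and 8.29 in Rb1L/L cultures, against 7.87, 8.16 and 7.96 in Rb1+/+ cultures (0.37 ± 0.09 SE; limma adjusted p = 0.03). It was lost without Rb1L/L replicate 1 or 2 or Rb1+/+ replicate 1 or 3 (adjusted p = 0.0813 to 0.0974). Trim13, a ligase of the endoplasmic reticulum that takes part in protein degradation there, measured 8.75, 8.57 and 8.55 in Rb1L/L cultures, against 9.17, 9.04 and 9.06 in Rb1+/+ cultures. It fell by 0.47 (SE 0.07; limma adjusted p = 0.00902), by nearly the same amount in each numbered pair of cultures (-0.42, -0.47 and -0.51). It passed in all 6 fits without 1 array and in none of the 3 without both arrays of a number (adjusted p = 0.0598 to 0.067). Trim13 and Trim35 lie within 20 Mb of Rb1 on chromosome 14, and Trim35 had a log2 fold change of 0.00. Linked variants near the targeted locus cannot be told apart from the allele in these cultures.

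Trim23, which carries an ADP-ribosylation factor domain and takes part in autophagy, measured 7.90, 7.81 and 7.91 in Rb1L/L cultures, against 8.42, 8.06 and 8.57 in Rb1+/+ cultures. It fell by 0.48 (SE 0.12; limma adjusted p = 0.038). The Rb1L/L values were close together and the Rb1+/+ values spread, with replicate 2 nearest to the Rb1L/L cultures. The call was lost in 5 of the 6 fits without 1 array (adjusted p = 0.0777 to 0.113) and held without Rb1+/+ replicate 2 (0.0082).

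In the remaining sets, with other roles, no member passed, where 12.2% of all tested genes did. Sets of 3 or 4 members are too small to be set against that share. None of 4 NHL members passed, of which Trim2, a neuronal ligase, had the smallest p (-0.18; adjusted p = 0.232) and the stem cell gene Trim71 had 0.00. None of 3 microtubule members passed (Trim9, -0.09; adjusted p = 0.43), nor any of 3 striated muscle members (Trim72, a membrane repair gene, -0.07; adjusted p = 0.53) or of 4 germ line and erythroid members (Trim10, -0.14; adjusted p = 0.266). Striated muscle markers had means of 7.12 to 7.20 in Rb1L/L and 7.14 to 7.19 in Rb1+/+ arrays. Neural markers had means of 7.004 to 7.19 in Rb1L/L and 7.22 to 7.33 in Rb1+/+ arrays. Of 9 neural markers tested 2 fell, where 5.08% of all tested genes fell. A log2 fold change below 0 was found in 8 of the 9, against 8719 of all 15462 tested genes. Of the 21 further members, Trim23 was the 1 that passed, beside the 12.2% of all tested genes.

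Besides Trim30a and Trim26, the 41 tested members that did not pass had log2 fold changes between -0.24 and 0.18, and their 95% intervals ran from -0.47 to 0.39 at the widest. The 6 members below the limit were Trim12a, Trim30d, Trim30e-ps1, Trim36, Trim55 and Trim75. Apart from Rb1L/L replicate 3 in Trim12a and Trim30d, their highest value in any culture was 5.18, for Trim55 in Rb1+/+ replicate 1.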

How the data were processed

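The series compared 3 Rb1L/L with 3 Rb1+/+ cultures of proliferating MEFs on 1 array each. The authors deposited log2 values per transcript cluster, made with RMA, with Partek also listed, per the submitters' processing notes; neither version is given in the sources used here. RMA gives the arrays a common distribution, which removes shifts of most genes and shrinks folds of dim ones. Values ran from 2.28 to 14.16 and array medians from 6.393 to 6.449. With 3 arrays per genotype, their number limits the precision.

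Of 35556 clusters, 21789 had 1 gene symbol in the platform annotation, 1621 had several and 12146 were not named there. The 1-symbol clusters stood for 19938 genes, and 21698 of them were found in the RefSeq gene table (GRCm38.p6), which gave names and gene order. Where a gene had more than 1 cluster (999 genes), that with the highest mean over the 6 arrays was taken. Genes with a mean above log2 5.081 were tested, 15462 in all, in R 4.3.3 with limma 3.58.1 (default eBayes, no block, Benjamini-Hochberg over all tested genes, threshold 0.05). Each log2 fold change is the Rb1L/L mean minus the Rb1+/+ mean, with the moderated standard error (SE). Apart from the numbering and a mention of pairs in the design text, nothing says which cultures belong together. The main fit took no account of pairs. Its p-values rest on the spread between the cultures of a genotype, moderated over all tested genes.

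The design text speaks of pairs, and once group means were removed, arrays of equal number correlated at 0.301, 0.243 and 0.298. Sex also followed the number, and arrays of unequal number were not compared. These correlations therefore do not settle whether the numbers mark pairs. Results with the number as a block are given where it changes a call. The members, gene lists and marker lists were chosen with earlier results of these data known, and no list was tested as a set. Named genes were all members past the threshold, the member of smallest p in each role list, Trim28, Trim25, Trim21 and Trim30a, members whose call changed with the block, and up to 4 genes of smallest p in each context list; other genes were named after their values were seen. The fit was first tried on simulated arrays. Promoter windows were searched on both strands and aligned with Biopython 1.88.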

Additional observations from a re-analysis of the deposited data

How the results depend on the processing

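The counts of members that rose (7) and fell (3) stayed within 1.5 times under all 9 alternatives that kept all arrays (replicate block, trended and robust variances, array weights, median centring, quantile normalization, no filter, a stricter filter and the mean of clusters), at 6 to 8 and at 3; so did the count of all tested genes. With fewer arrays fewer genes were called. Without 1 array, or without both arrays of a number, 2 to 5 members rose and 0 to 2 fell, 92 to 1441 of all tested genes were called against 1883, and the median change of the members ran from -0.0288 to 0.00083 against 0.00159. In the same fits, chosen after seeing the data for these lists, 2 to 5 antiviral and innate immune members rose, and of the RNA and DNA sensing genes 4 to 7 rose and 0 or 1 fell.

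With the replicate block, Trim26 (adjusted p = 0.0423) and Trim30a (0.0357) passed and Trim28 (0.051) did not, and no other call among the members changed. Trim26 also passed with array weights, median centring and the stricter filter (adjusted p = 0.0434 to 0.0483). Trim14 was lost with array weights (0.0738) and without a filter (0.0559). Trim9, which never passed, ran from -0.137 to 0.00083 when both arrays of a number were left out, above 0 without those numbered 1. In signal, Trim14 and Trim30a lie near the low-value limit in Rb1+/+ cultures.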

Other observations

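Over all 19938 genes, 9 had a single array that stood apart from the other 5 by more than 1 on the log2 scale, a limit chosen after seeing the data. Only Trim12a (2.24) and Trim30d (2.11) exceeded 2, both in Rb1L/L replicate 3. In that culture Ifi202b, an interferon-inducible gene of the DNA-sensing family (1.43), and Snora44 (1.36) also stood above the rest. Sp100, a nuclear body gene (1.25), and Ifi27l2a (1.15) did so in Rb1L/L replicate 2. In Rb1+/+ cultures the genes were Fhl5 (1.11, replicate 2), Ppbp (1.01, replicate 3) and U90926, which was below the rest (1.04, replicate 1). No gene stood apart in Rb1L/L replicate 1.

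A further 6 clusters carry a Trim symbol among several symbols and were used for no gene here. In 2 of them, one annotated with Trim5, Trim12c and Trim12a and the other with Trim5 and Trim12c, the Rb1L/L cultures were above the Rb1+/+ cultures without overlap: 6.58, 6.89 and 6.996 against 5.79, 5.80 and 5.92 in the first, and 7.55, 7.85 and 7.67 against 6.82, 7.02 and 7.03 in the other. In 1 the groups did not overlap the other way, at 3.85, 3.92 and 3.67 in Rb1L/L against 3.99, 4.03 and 4.11 in Rb1+/+ cultures, all below the low-value limit, and 3 overlapped. Among all tested genes, the groups did not overlap for 16.2% that were higher in Rb1L/L and 18.3% that were lower. The differences of these 6 clusters were not tested.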
